A study of Mus musculus with 12 samples.

Results

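The genes described are 10 heat shock chaperone genes of the mouse, matched by symbol among the 49585 genes of the count files: the cytosolic HSP70 genes Hspa1a, Hspa1b and Hspa8, the endoplasmic reticulum HSP70 gene Hspa5, the HSP70 partners Hsph1 and Dnajb1, the cytosolic HSP90 genes Hsp90aa1 and Hsp90ab1, and the mitochondrial chaperonin genes Hspd1 and Hspe1. They were followed in 12 libraries of CD4 T cells from 2 genotypes, with 3 libraries each of total cytoplasmic RNA and of ribosome protected fragments (RPFs, the stretches of mRNA covered by ribosomes) per genotype. *Rnmt* cKO cells were *Rnmt* fl/fl CD4cre + and controls were *Rnmt* fl/fl CD4cre -, so that all mice, all of them female and on a C57B6/J background, carried loxP sites around exon 3 of *Rnmt*, and Cre was driven by the Cd4 promoter, which is active in double positive cells of the thymus, so that CD8 T cells carry the deletion as well. RNMT is the methyltransferase that completes the mRNA cap, which ribosomes need to bind most mRNAs. Naive CD4 T cells of lymph nodes, separated with magnets and not by flow cytometry, were activated for 20 h on plates coated with anti-CD3 (at 5 ug/ml) and anti-CD28 (at 1 ug/ml) in medium with 10% serum and 50 uM mercaptoethanol, and held in 0.1 mg/ml cycloheximide for 1 min before lysis. The labels name no heat treatment and no age. The labels number the libraries 1 to 3 without saying that the cultures came from separate mice, or that total RNA and RPF of one number share a culture, so the p-values measure the spread between these samples.

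Chaperones bind unfolded proteins and help them fold. HSP70 proteins hold short hydrophobic stretches in cycles of ATP hydrolysis that J-domain proteins such as the product of Dnajb1 start and that nucleotide exchange factors such as HSP110, the product of Hsph1, end, whereas HSP90 acts later on client proteins such as kinases and receptors. When unfolded proteins accumulate in the cytosol, heat shock factor 1 binds heat shock elements and induces genes including Hspa1a, Hspa1b, Dnajb1, Hsph1 and Hsp90aa1. This list is not complete, and letters of such elements also stand in the shared promoter of Hspe1 and Hspd1, described below. Unfolded proteins in the endoplasmic reticulum instead induce Hspa5, which encodes BiP. T cells raise many chaperones on activation, when protein synthesis grows.

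The total RNA libraries held 15079703 to 22629563 reads on genes, and the RPF libraries 4123271 to 10661356, where *Rnmt* cKO replicate 3 was the shallowest. Levels are given as normalized CPM, which are counts scaled to the reads on genes of each library after TMM normalization. Fold changes therefore compare shares of the RNA that was sequenced and say nothing of how much mRNA a cell held. The deleted gene itself was at 95.3, 93.9 and 94.1 CPM in total RNA of controls and at 29.3, 32.3 and 30.3 CPM in *Rnmt* cKO cells. *Rnmt* RPF was at 104, 87.7 and 98.7 CPM in controls and at 10.5, 10.3 and 9.57 CPM in *Rnmt* cKO cells, so that each library matched its label. The 9 T cell markers examined (Cd3e, Cd3g, Cd3d, Cd4, Cd5, Cd2, Cd28, Lat and Trac) were each above 1 CPM on average in both genotypes, and in total RNA they summed to 3553 ± 124 CPM in controls and 2869 ± 210.2 CPM in *Rnmt* cKO cells (SD, n = 3), where Cd2 was past the threshold upwards and Cd3g, Cd3d, Cd5 and Trac downwards.

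The promoters are shown first because several of these genes are known for a shared control element. RefSeq promoter windows (build GRCm38.p6, from 250 bases before the annotated start to 50 after it) were at hand for 7 of the 10 genes, all except Hspa8, Hsp90aa1 and Hsp90ab1. They were searched on both strands for heat shock element units head to head (GAANNTTC) or tail to tail (TTCNNGAA), for 3 alternating units (TTCNNGAANNTTC or GAANNTTCNNGAA, which contain the shorter motifs), and for the endoplasmic reticulum stress element (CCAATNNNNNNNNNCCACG). The matched letters are in capitals in these stretches of 30 bases, each written 5′ to 3′ on the strand of its gene.
Hspa1b, chr17:34959324-34959353, minus strand: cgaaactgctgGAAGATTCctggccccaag
Hsph1, chr5:149636351-149636380, minus strand: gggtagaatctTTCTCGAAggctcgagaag
Hspe1, chr1:55088051-55088080, plus strand: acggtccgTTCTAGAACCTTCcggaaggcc
Hspd1, chr1:55088055-55088084, minus strand: gcggggccTTCCGGAAGGTTCtagaacgga
Hspa5, chr2:34772020-34772049, plus strand: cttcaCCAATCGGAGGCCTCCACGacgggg

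Hspa1a (chr17:34972242-34972271, minus strand) has the same 30 bases as Hspa1b, and their whole promoter windows were identical at 296 of 300 bases. The match lies between bases -104 and -97 from the start in both, and 7.86% of the 32851 promoter windows of the genome hold a GAANNTTC. Hspe1 and Hspd1 are divergent neighbours, and the stretches printed for them are the opposite strands of overlapping DNA. Matches to 3 units, held by 0.603% of all windows, were found in this shared promoter and in Hsph1, where the match lies after the start, at bases 37 to 49 or 16 to 28 of the 2 annotated starts. Of the 2 windows of Hspd1, the one at the start annotated farther upstream (chr1:55088194-55088493) held none of these letters, and the matches lie after that start. The match printed for Hsph1 lies before the start, and TTCNNGAA is held by 8.52% of windows. The window of Hspa5 held a match to the endoplasmic reticulum stress element between bases -65 and -47, as did 0.119% of all windows. The 2 windows of Dnajb1 held none of these letters. A match is a description of the letters and not of a bound site.

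How far each gene can be counted differs, because the authors counted reads that align to 1 place alone. Windows of 30 bases (about the length of a footprint) and of 75 bases (the length of a read before trimming) were taken along the main GENCODE vM21 transcript of each gene and looked for in the transcripts of all other genes. Every 30-base window of the coding sequences of Hspa5, Hsph1 and Dnajb1 was found in no other gene. For Hsp90ab1 this held for 79% of the 30-base windows and 99.1% of the 75-base windows. It held for 20% of the 30-base coding windows of Hspd1, 15.2% of those of Hspe1, 8.06% of those of Hsp90aa1 and 4.98% of those of Hspa8, most of whose windows recur in pseudogenes such as Gm15459 for Hspa8 and Gm12346 for Hsp90aa1. Hspa1a and Hspa1b share 88.8% of the 30-base coding windows of Hspa1a with each other, and 8.71% of its windows were its own. RPF counts of these 6 genes therefore come from a small part of their coding sequence, which is the same part in both genotypes. Of the 75-base windows of the whole transcript, 32% were in no other gene for Hspa8, 44.2% for Hspa1b, 45.8% for Hspa1a, 46.9% for Hsp90aa1, 66.3% for Hspd1 and 76.3% for Hspe1.

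**Figure D1:**
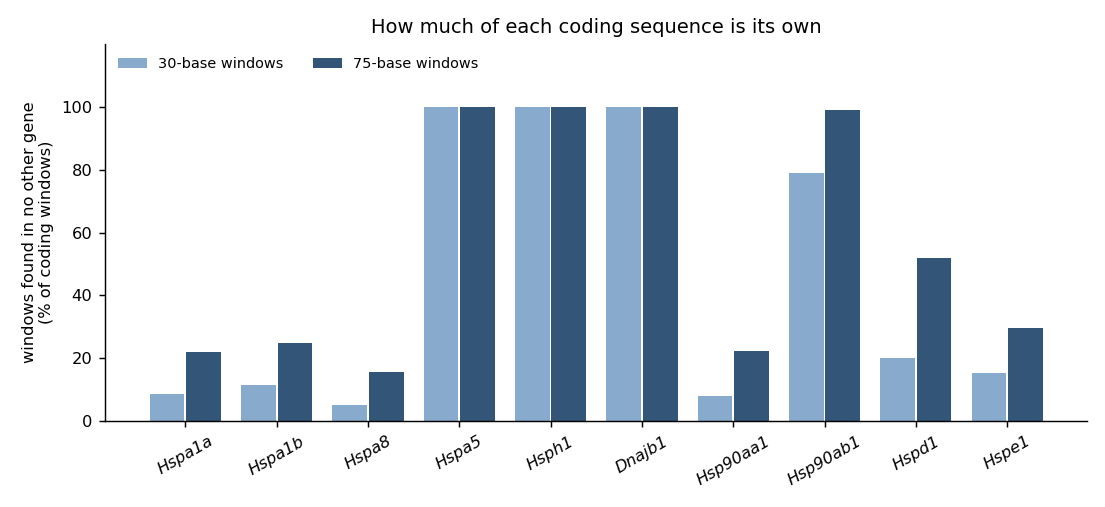
Share of coding windows found in no other gene's transcripts (y axis, percent, from 0), for 30-base windows (light bars) and 75-base windows (dark bars) of each gene on the x axis. Hspa5, Hsph1 and Dnajb1 stand at 100% for both lengths, and Hspa8 is the lowest, at 4.98% and 15.6%.

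In total RNA of control cells Hsp90ab1 was the most abundant of the 10 genes per length, at 1526 ± 39.1 CPM per kilobase of transcript (SD, n = 3), the 99.9th percentile of protein-coding genes. Hspe1 followed at 240.1 ± 21.6 and Hspa8 at 236 ± 8.59 CPM per kilobase (SD, n = 3), which did not differ beyond their spread. Hspa5 was at 134 ± 3.10, Hspd1 at 118 ± 9.72, Hsp90aa1 at 47.0 ± 1.03, Dnajb1 at 34.2 ± 1.66 and Hsph1 at 13.4 ± 3.96 CPM per kilobase (SD, n = 3), near the median of 11.7 over 9985 protein-coding genes. Hspa1b was at 0.240 ± 0.0704 CPM per kilobase (SD, n = 3), at percentile 0.811. The whole transcript length was used, so that levels of the genes with few unique windows are understated. Of all protein-coding counts, the 10 genes together took 0.787 ± 0.0187% in controls and 0.685 ± 0.0148% in *Rnmt* cKO cells (SD, n = 3). Hsp90ab1 alone gave 67.7 ± 0.180% of these counts in controls and 54.5 ± 0.249% in *Rnmt* cKO cells (SD, n = 3). Without Hsp90ab1 the share of the others was 0.254 ± 0.00524% in controls and 0.312 ± 0.00505% in *Rnmt* cKO cells (SD, n = 3). Thus the summed share was lower, and that of the genes other than Hsp90ab1 higher, in every *Rnmt* cKO library of total RNA than in every control.

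**Figure D2:**
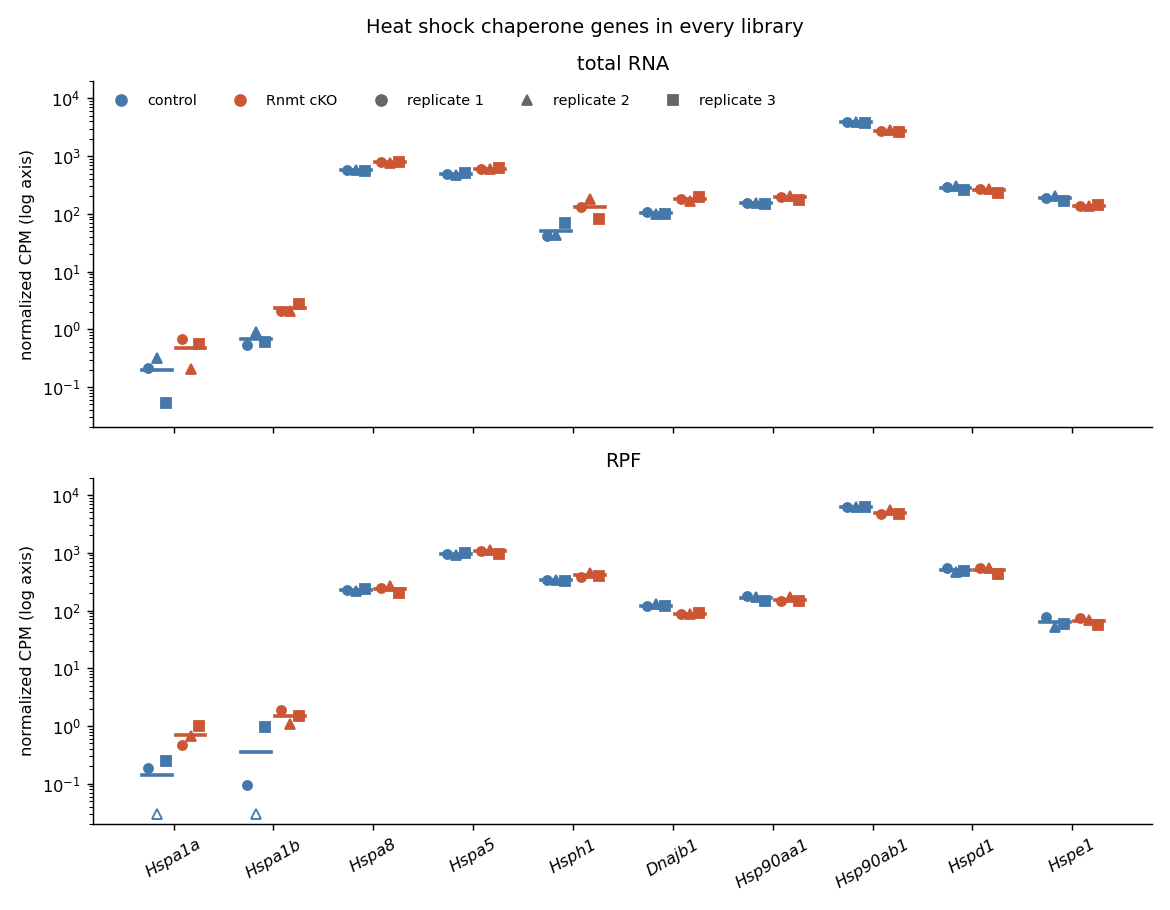
Normalized CPM on a log axis (y) of the 10 genes (x) in each library of total RNA (upper panel) and RPF (lower panel), with 1 symbol per replicate, controls in blue, *Rnmt* cKO in orange and a line at each mean. Open triangles mark libraries with 0 counts, drawn at the foot of the axis. Dnajb1 is higher in *Rnmt* cKO in the upper panel, at 182.8 against 102 CPM on average, and lower in the lower panel, at 88.3 against 121 CPM.

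Comparing the genotypes, 6 of these genes were higher and 2 lower in total RNA of *Rnmt* cKO cells, 1 was not past the threshold and Hspa1a was not tested, as it did not reach the filter of a CPM above 1 in at least 3 libraries. Of all 11519 genes tested, 26.3% were higher and 28% lower. Hspa1b reached the filter through the *Rnmt* cKO libraries alone, and without it 5 of 8 genes were higher. In RPF, 1 gene was higher and 2 were lower, against 14.1% higher and 15.7% lower of 11428 genes tested. In translational efficiency (TE, the genotype difference in RPF less that in total RNA, tested as an interaction over all 12 libraries), 0 genes were higher and 1 was lower, against 3.24% higher and 6.57% lower of 10668 genes tested. With a block for total RNA and RPF libraries of the same genotype and number, 3 were lower in TE. The 8 genes tested other than Hspa1b had median log2 fold changes of 0.31 (total RNA), 0.05 (RPF) and -0.27 (TE), or 0.32, 0.08 and -0.16 with it, beside medians of -0.00, 0.01 and 0.04 over all genes tested. Unless another test is named, adjusted p-values are those of the quasi-likelihood F test in edgeR, corrected by Benjamini and Hochberg's method over all genes tested, and 0.05 was the threshold. SE stands for the standard error of a log2 fold change. A permutation test of 3 against 3 libraries cannot go below 0.1, so none was used for single genes.

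**Figure D3:**
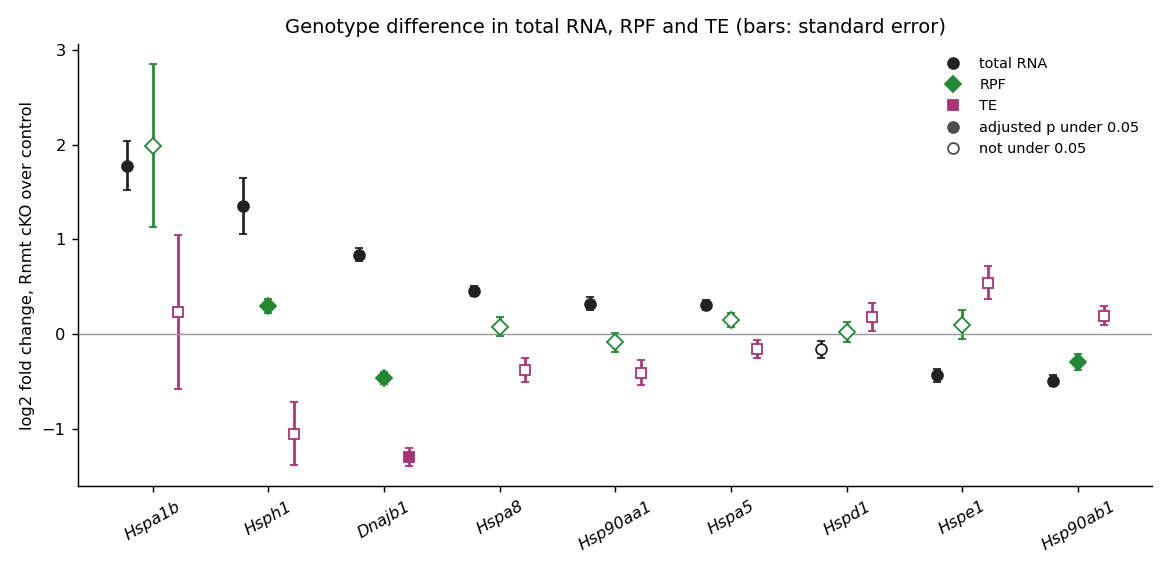
Log2 fold change of *Rnmt* cKO over control (y) with its standard error as bars for the 9 genes tested (x, ordered by total RNA), in total RNA (circles), RPF (diamonds) and TE (squares). Filled symbols have an adjusted p under 0.05. Total RNA of 6 genes lies above 0 with filled symbols, whereas TE has a filled symbol for Dnajb1 alone, at -1.30.

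Dnajb1 (ENSMUSG00000005483, chr8:83608193-83612653 of GRCm38, plus strand) encodes the J-domain protein that stimulates the ATPase of cytosolic HSP70, and it was the 1 member past the threshold in total RNA and RPF in opposite directions. Its total RNA was at 108, 99.4 and 99.5 CPM in controls and at 184, 168 and 196 CPM in *Rnmt* cKO cells. Its RPF was at 119, 127.5 and 118 CPM in controls and at 87.2, 87.6 and 90.1 CPM in *Rnmt* cKO cells. Each *Rnmt* cKO library was above every control in total RNA and below every control in RPF. The log2 fold change was 0.84 in total RNA (SE 0.07, adjusted p = 5.9e-05, edgeR) and -0.46 in RPF (SE 0.06, adjusted p = 0.0014, edgeR). TE fell by 1.30 on the log2 scale (SE 0.10, adjusted p = 5.1e-06, edgeR). Between the total RNA and RPF library of the same genotype and number, RPF CPM per coding kilobase over total RNA CPM per kilobase was 3.24, 3.77 and 3.47 in controls and 1.39, 1.53 and 1.35 in *Rnmt* cKO cells. By this ratio Dnajb1 was at percentile 73.1 of 9985 protein-coding genes in controls and at percentile 24.3 in *Rnmt* cKO cells. All of its coding windows were unique, and reads on the opposite strand were at most 1 per genotype and library kind. With each replicate left out, TE stayed between -1.36 and -1.24.

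Hsph1 (ENSMUSG00000029657, chr5:149614287-149636376, minus strand) encodes HSP110, the nucleotide exchange factor of HSP70. Its total RNA was at 41.2, 43.0 and 68.2 CPM in controls and at 130.3, 178 and 80.6 CPM in *Rnmt* cKO cells. Control replicate 3 was the highest control and *Rnmt* cKO replicate 3 the lowest *Rnmt* cKO library, without overlap. The log2 fold change was 1.35 (SE 0.30, adjusted p = 0.0057, edgeR), between 1.07 and 1.61 with each replicate left out. Its RPF was at 342.5, 335 and 322 CPM in controls and at 382, 451 and 392 CPM in *Rnmt* cKO cells. The replicates agreed more closely there, and the log2 fold change was 0.29 (SE 0.08, adjusted p = 0.020, edgeR), which was not past the threshold without control replicate 2 or without control replicate 3. TE had a log2 fold change of -1.05 (SE 0.33, adjusted p = 0.066, edgeR), and -1.35 without control replicate 3, which passed (adjusted p = 0.038, edgeR). As counted, Hsph1 had the highest ratio of RPF per coding kilobase to total RNA per kilobase of the members. It was at 12.3, 11.5 and 6.99 in controls and 4.33, 3.75 and 7.18 in *Rnmt* cKO cells, and the libraries of the genotypes overlapped. In controls this was the 96.8th percentile of protein-coding genes.

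The sum of B cell markers had replicate 3 in the same place as Hsph1 total RNA. The 6 B cell markers examined (Ms4a1, Cd79a, Cd79b, Pax5, Cd22 and Blk) summed to 7.47, 5.02 and 27.2 CPM in total RNA of controls and to 71.5, 90.8 and 16.5 CPM in that of *Rnmt* cKO cells, and to 9.84, 7.97 and 30.4 CPM and 103, 116.5 and 16.4 CPM in RPF. Their most abundant gene was Ms4a1 (CD20) in both library kinds, 3 of the 6 were past the threshold upwards in total RNA and 3 in RPF. None of the 6 was at 0 counts over a whole group, but Cd22 had 0 counts in RPF of control replicate 2 and Blk in RPF of *Rnmt* cKO replicate 3. As for Hsph1 total RNA, replicate 3 was the highest control and the lowest *Rnmt* cKO library. In total RNA 19.6% of all genes tested had this order, and 27.5% of those higher. Hsph1 RPF did not have it, as replicate 3 was the lowest control, at 322 CPM. There the lowest *Rnmt* cKO library was replicate 1, at 382 CPM. Between replicates 3, in which the marker sum was lower in *Rnmt* cKO while Cd79a, Cd79b and Blk were not lower in total RNA, Hsph1 total RNA was at 68.2 CPM in the control and 80.6 CPM in *Rnmt* cKO, and Dnajb1 total RNA at 99.5 and 196 CPM. The part of B cells in the Hsph1 result was not tested. In bulk samples of this kind, fewer cells of a type and less RNA per cell cannot be told apart.

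**Figure D4:**
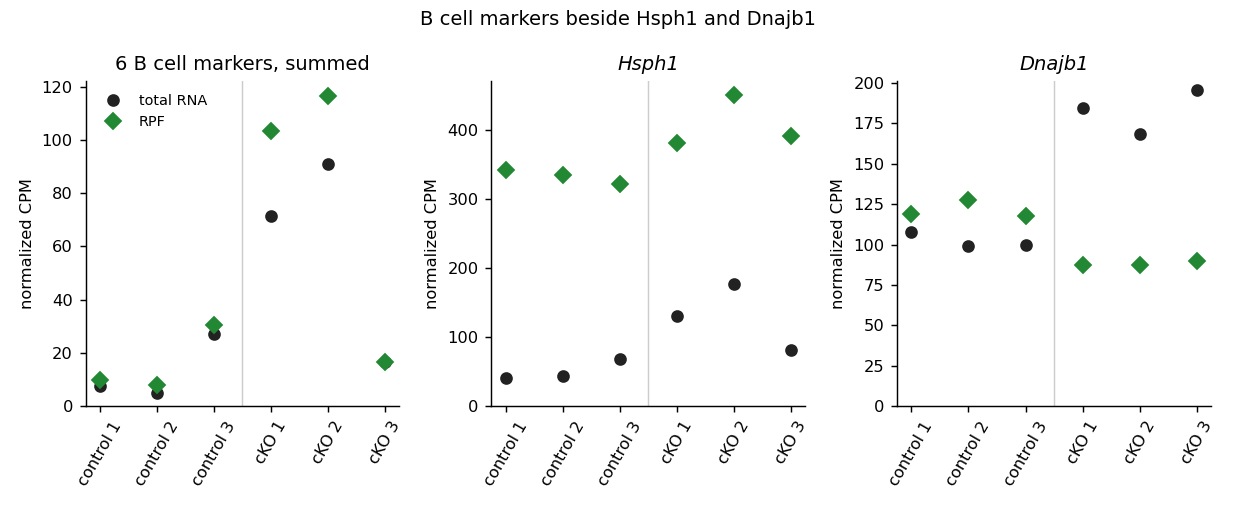
Normalized CPM (y, from 0) for each genotype and replicate number (x) for the sum of 6 B cell markers, Hsph1 and Dnajb1, with total RNA as circles and RPF as diamonds, which cover each other for the markers in *Rnmt* cKO replicate 3. The marker sum and Hsph1 total RNA are highest in *Rnmt* cKO replicates 1 and 2, whereas Dnajb1 total RNA lies between 168 and 196 CPM in all *Rnmt* cKO replicates.

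Markers of other cell types were examined in the same way. Cd8a and Cd8b1 summed to 21.4, 21.3 and 41.6 CPM in total RNA of controls and 26.4, 21.3 and 9.83 CPM in that of *Rnmt* cKO cells, and neither passed the threshold. The 9 myeloid markers (Lyz2, Cd14, Itgam, Csf1r, Adgre1, Fcer1g, Tyrobp, S100a8 and S100a9) were each under 1 CPM in total RNA and summed to 0.478 ± 0.189 CPM in controls and 1.30 ± 0.584 CPM in *Rnmt* cKO cells (SD, n = 3). In RPF they summed to 0.429 ± 0.375 and 3.79 ± 1.79 CPM (SD, n = 3), and Fcer1g, the 1 gene to reach the filter, did so through the *Rnmt* cKO libraries alone, at 0.0937, 0.15 and 0 CPM in controls and 1.28, 2.44 and 1.23 CPM in *Rnmt* cKO cells. The 5 NK cell markers (Ncr1, Klrb1c, Klre1, Klra8 and Eomes) summed to 3.17 ± 0.382 CPM in total RNA of controls and 26.9 ± 8.94 CPM in that of *Rnmt* cKO cells (SD, n = 3). Eomes, the most abundant, which activated T cells express too, was at 2.89 CPM in controls and 25.4 CPM in *Rnmt* cKO cells on average and rose by 3.13 in total RNA on the log2 scale (SE 0.26, adjusted p = 5.9e-05, edgeR) and by 2.98 in RPF (SE 0.31, adjusted p = 4.1e-04, edgeR). Ncr1, Klrb1c, Klre1 and Klra8 were under 1 CPM on average and were not tested, and the first 3 of them were higher in every *Rnmt* cKO library of total RNA than in every control. Of the regulatory T cell markers Foxp3 was under 1 CPM in total RNA, and Ikzf4 was at 4.01 CPM in controls and 8.62 CPM in *Rnmt* cKO cells on average. The part of these cells in the chaperone results was not tested.

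The heat-inducible HSP70 genes were at the limit of detection. Hspa1b (ENSMUSG00000090877, chr17:34956436-34959238, minus strand) had 10, 17 and 11 counts in total RNA of controls and 31, 40 and 64 in that of *Rnmt* cKO cells, or 0.529, 0.898 and 0.592 CPM against 2.10, 2.06 and 2.76 CPM. The libraries did not overlap, and the log2 fold change was 1.78 (SE 0.26, adjusted p = 7.8e-04, edgeR). As it reached the filter through the *Rnmt* cKO libraries, this value is a description, and with at least 10 counts required in every library instead it was 1.78 (SE 0.25, adjusted p = 6.3e-04, edgeR). In RPF it had 1, 0 and 8 counts in controls and 16, 11 and 6 in *Rnmt* cKO cells. The log2 fold change in RPF was 1.99 (SE 0.86, adjusted p = 0.12, edgeR), a description as well, since the filter was again reached through the *Rnmt* cKO libraries. Of the 9 control counts in RPF, 8 were in replicate 3, and no RPF fold is given without that library. Hspa1b passed the threshold in RPF without it (adjusted p = 0.014, edgeR), against controls of 1 and 0 counts. Hspa1a (ENSMUSG00000091971, chr17:34969190-34972156, minus strand), its near-identical neighbour, had 4, 6 and 1 counts in total RNA of controls and 10, 4 and 13 in that of *Rnmt* cKO cells, which overlapped. In RPF it had 2, 0 and 2 counts in controls and 4, 7 and 4 in *Rnmt* cKO cells, which did not overlap. Without the filter its log2 fold change was 1.24 in total RNA (SE 0.54, adjusted p = 0.085, edgeR) and 2.01 in RPF (SE 1.04, adjusted p = 0.24, edgeR). The gene Gm20481, which lies inside Hspa1a on the opposite strand, was listed at 0 in all 12 libraries.

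Hspa8 (ENSMUSG00000015656, chr9:40800984-40810087, plus strand) encodes the constitutive HSP70 of the cytosol, which also uncoats clathrin vesicles and serves chaperone-mediated autophagy. Its total RNA was at 580.4, 575 and 543 CPM in controls and at 777, 772 and 779.8 CPM in *Rnmt* cKO cells, without overlap. The log2 fold change was 0.46 (SE 0.06, adjusted p = 3.6e-04, edgeR). Its RPF, counted on few unique windows, was at 230.3, 217 and 235 CPM in controls and at 250.4, 269 and 199.6 CPM in *Rnmt* cKO cells, which overlapped, with a log2 fold change of 0.08 (SE 0.10, adjusted p = 0.60, edgeR). The TE value was -0.38 (SE 0.13, adjusted p = 0.080, edgeR). The ratio of RPF per coding kilobase to total RNA per kilobase was 0.497 ± 0.0353 in controls (SD, n = 3), at the 2.40th percentile of protein-coding genes. This percentile stands beside a unique share of 4.98% for 30-base coding windows and of 99.7% for those outside the coding sequence, so the level of RPF is understated against that of total RNA, whose reads also cover the rest of the transcript. Snord14c, Snord14d and Snord14e, the snoRNA genes in introns of Hspa8, were listed at 0 in all 12 libraries.

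Hspa5 (ENSMUSG00000026864, chr2:34771970-34777547, plus strand) encodes BiP, the HSP70 of the endoplasmic reticulum. Its total RNA was at 492, 479.96 and 503 CPM in controls and at 599, 605 and 618 CPM in *Rnmt* cKO cells, without overlap, and the log2 fold change was 0.31 (SE 0.05, adjusted p = 0.0021, edgeR). Its RPF was at 971, 899 and 989 CPM in controls and at 1074, 1125 and 967 CPM in *Rnmt* cKO cells, which overlapped in replicate 3. The log2 fold change in RPF was 0.15 (SE 0.08, adjusted p = 0.19, edgeR) and in TE -0.16 (SE 0.10, adjusted p = 0.34, edgeR). The closest gene to Hspa5 over the 12 libraries was Dnajb11, which encodes a J-domain protein, with a root mean square difference of 0.046 in centred log2 CPM.

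The cytosolic HSP90 genes moved in opposite directions in total RNA. Hsp90aa1 (ENSMUSG00000021270, chr12:110690605-110702728, minus strand), the inducible form, was at 155, 157 and 151 CPM in controls and at 197.5, 206 and 174 CPM in *Rnmt* cKO cells. Hsp90ab1 (ENSMUSG00000023944, chr17:45567775-45573271, minus strand), the constitutive form, was at 3922, 3881 and 3735 CPM in controls and at 2758, 2822 and 2629 CPM in *Rnmt* cKO cells. Neither gene overlapped between genotypes. The log2 fold change was 0.32 for Hsp90aa1 (SE 0.07, adjusted p = 0.0056, edgeR) and -0.49 for Hsp90ab1 (SE 0.05, adjusted p = 2.0e-04, edgeR). In RPF, Hsp90ab1 was at 6129.7, 6119 and 6116 CPM in controls and at 4696, 5493 and 4767 CPM in *Rnmt* cKO cells, with a log2 fold change of -0.30 (SE 0.08, adjusted p = 0.028, edgeR). This call was lost without control replicate 1, 2 or 3 or without *Rnmt* cKO replicate 1, at log2 fold changes of -0.31 to -0.25 and adjusted p-values of 0.063 to 0.10 (edgeR). Hsp90aa1 RPF was at 177, 172 and 145 CPM in controls and at 145, 172 and 146 CPM in *Rnmt* cKO cells, which overlapped. Its log2 fold change was -0.09 in RPF (SE 0.10, adjusted p = 0.53, edgeR) and -0.41 in TE (SE 0.13, adjusted p = 0.068, edgeR). That of Hsp90ab1 in TE was 0.20 (SE 0.10, adjusted p = 0.24, edgeR).

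Of the mitochondrial chaperonin genes, Hspd1 (ENSMUSG00000025980, chr1:55077835-55088243, minus strand) encodes HSP60, the barrel in which matrix proteins fold, and Hspe1 (ENSMUSG00000073676, chr1:55088132-55091307, plus strand) encodes HSP10, its lid. Hspd1 total RNA was at 292, 306 and 260.2 CPM in controls and at 265, 275 and 229 CPM in *Rnmt* cKO cells, which overlapped, with a log2 fold change of -0.16 (SE 0.09, adjusted p = 0.17, edgeR). Hspe1 total RNA was at 187, 202 and 168 CPM in controls and at 134, 136 and 141 CPM in *Rnmt* cKO cells, without overlap, and the log2 fold change was -0.44 (SE 0.07, adjusted p = 0.0014, edgeR). Whether the genotype difference differed between these neighbours was not tested. Hspd1 RPF was at 552, 474 and 480.1 CPM in controls and at 548, 543 and 435 CPM in *Rnmt* cKO cells. Hspe1 RPF was at 76.2, 52.8 and 58.3 CPM in controls and at 74.1, 69.7 and 56.5 CPM in *Rnmt* cKO cells. Both overlapped between genotypes, with log2 fold changes of 0.02 for Hspd1 (adjusted p = 0.90, edgeR) and 0.10 for Hspe1 (adjusted p = 0.64, edgeR) in RPF. TE was at 0.18 for Hspd1 (SE 0.15, adjusted p = 0.49, edgeR) and at 0.54 for Hspe1 (SE 0.17, adjusted p = 0.070, edgeR). The genes overlap by 112 bases on opposite strands, which the stranded counts keep apart.

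Over these genes the ratio of RPF per coding kilobase to total RNA per kilobase ranged from Hspa8, at 0.497, to Hsph1, at 10.3 ± 2.85 (SD, n = 3), in controls, beside a median of 2.30 over 9985 protein-coding genes. Of the genes with all or most coding windows unique, Hspa5 had a ratio of 3.62 ± 0.105 in controls and 3.25 ± 0.288 in *Rnmt* cKO cells, and Hsp90ab1 of 1.85 ± 0.0461 and 2.11 ± 0.142 (SD, n = 3). That of Hspe1 was 0.855 ± 0.184 in controls and 1.23 ± 0.197 in *Rnmt* cKO cells, and that of Hsp90aa1 1.59 ± 0.140 and 1.20 ± 0.0877 (SD, n = 3). Of the 30-base coding windows, 4.98% were unique for Hspa8, 15.2% for Hspe1 and 8.06% for Hsp90aa1. Their ratios are therefore understated, and the order of the genes holds only for the ratios as counted.

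**Figure D5:**
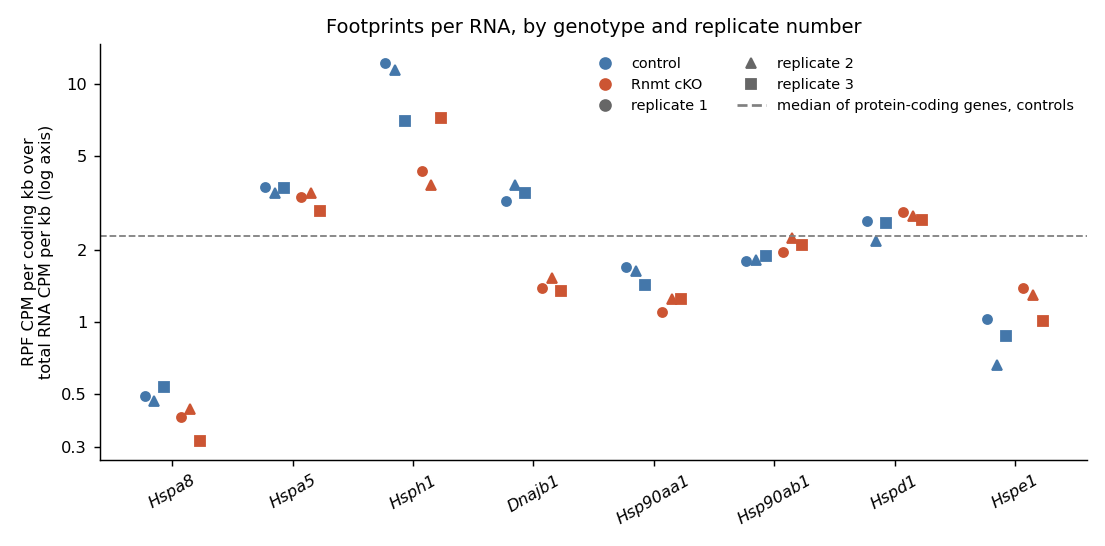
RPF CPM per coding kilobase over total RNA CPM per kilobase (y, log axis) for each genotype and replicate number, for 8 of the genes (x), with controls in blue, *Rnmt* cKO in orange and 1 symbol per replicate. The dashed line is the median of protein-coding genes in controls, at 2.30. Dnajb1 falls from above the line in every control to below it in every *Rnmt* cKO pair of libraries.

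The regulators of the heat shock response were examined next. Hsf2, which encodes heat shock factor 2, was at 25.4, 27.3 and 30.2 CPM in total RNA of controls and at 92.0, 97.7 and 96.8 CPM in that of *Rnmt* cKO cells. It rose by 1.79 in total RNA (SE 0.08, adjusted p = 6.1e-06, edgeR) and by 1.25 in RPF (SE 0.07, adjusted p = 5.3e-05, edgeR) on the log2 scale, and its TE value was -0.54 (SE 0.10, adjusted p = 0.0054, edgeR). Hsf1, which encodes the main heat-activated factor, was at 35.0, 35.7 and 36.9 CPM in controls and at 45.2, 40.3 and 40.9 CPM in *Rnmt* cKO cells, with a log2 fold change of 0.23 (SE 0.07, adjusted p = 0.026, edgeR). In RPF its log2 fold change was 0.28 (SE 0.07, adjusted p = 0.022, edgeR). Hsbp1, a binding partner of heat shock factors, was not past the threshold, at 0.09 in total RNA and -0.08 in RPF, and Hsf4 was not tested. Among 5 other genes known to be induced by heat or proteotoxic stress, 4 were higher and 0 lower in total RNA, and 2 were higher and 0 lower in RPF, beside 26.3% higher and 28% lower in total RNA and 14.1% and 15.7% in RPF of all genes tested. Ubb, a polyubiquitin gene, was at 56.9, 62.6 and 66.1 CPM in total RNA of controls and at 123, 106 and 82.6 CPM in that of *Rnmt* cKO cells, where replicate 3 was again the highest control and the lowest *Rnmt* cKO library. It rose by 0.75 in total RNA (SE 0.14) and was at -0.04 in RPF, and its TE fell by 0.79 on the log2 scale (SE 0.18). Ier5, which acts with heat shock factor 1, rose by 0.88 in total RNA (SE 0.07) and 0.93 in RPF (SE 0.10). Cacybp rose by 0.44 (SE 0.06) and 0.25 (SE 0.07).

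Genes related to the members were listed by name in 11 lists of 124 genes, of which 113 were tested. These hold other chaperones and co-chaperones. Also listed were the heat shock factors and heat-inducible genes above, genes of the unfolded protein response and snoRNAs of Hspa8, which are not chaperones. In total RNA 44 of these, or 38.9%, were higher and 22, or 19.5%, were lower, in RPF 17 (15%) and 10 (8.85%), and in TE 2 (1.77%) and 14 (12.4%), beside the shares of all genes given above. In total RNA, 10 of the 41 genes named from these lists had replicate 3 as the highest control and the lowest *Rnmt* cKO library, as for the B cell markers (Atf6b, Dnajc1, Dnajc7, Dnajc21, Ero1l, Pdia3, Ppid, Ppp5c, Sec63 and Ubb), as had 19.6% of all genes tested and 27.5% of those higher, and the part of B cells in their values was not tested. The medians of the lists on the log2 scale were 0.14 (total RNA), 0.04 (RPF) and -0.06 (TE). Of 28 other J-domain genes, 9 were higher and 4 lower in total RNA, 1 and 2 in RPF, and 0 and 4 in TE. In total RNA 15 of them were not past the threshold, and in TE 24. For these and the next lists, the shares of all genes tested were 26.3% higher and 28% lower in total RNA. They were 14.1% and 15.7% in RPF, and 3.24% and 6.57% in TE. Dnaja2, a J-domain partner of HSP70 like Dnajb1, was at 181, 194 and 198 CPM in total RNA of controls and at 339, 327 and 332 CPM in that of *Rnmt* cKO cells, with a log2 fold change of 0.80 (SE 0.06). Its RPF value was -0.06 (SE 0.08), and its TE fell by 0.86 on the log2 scale (SE 0.10, adjusted p = 1.6e-04, edgeR). Dnajc2, which works at the ribosome, Dnajc7 and Dnajc21 rose in total RNA by 0.51, 0.60 and 0.63 and were at -0.07, 0.03 and 0.14 in RPF, and all of these fell in TE, by 0.57, 0.57 and 0.49 on the log2 scale. Dnajc9 fell by 0.24 in RPF. Of 9 HSP70 co-chaperones, 3 were higher and 3 lower in total RNA, and 1 was higher and 0 lower in RPF. The nucleotide exchange factors Bag5 and Bag4 rose in total RNA by 0.53 and 0.40, and Bag5 rose in RPF by 0.63. Stub1, the ubiquitin ligase CHIP, fell by 0.25 in total RNA. Among 7 other HSP70 and HSP110 genes, 5 were tested, of which 1 was higher and 1 lower in total RNA, and 0 were higher and 1 lower in RPF. Hspa4l fell by 0.48 in total RNA and by 0.68 in RPF.

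Of 19 HSP90 co-chaperones, 8 were higher and 2 lower in total RNA, 4 and 0 in RPF, and 0 and 3 in TE. The shares of all genes tested were 26.3% higher and 28% lower in total RNA, 14.1% and 15.7% in RPF, and 3.24% and 6.57% in TE. Chordc1 rose by 0.73 in total RNA (SE 0.07) and 0.41 in RPF (SE 0.06). Stip1, the adaptor that joins HSP70 to HSP90, rose by 0.60 (SE 0.06) in total RNA and was at 0.21 in RPF (SE 0.08). The phosphatase Ppp5c rose by 0.58 and 0.28, and Ahsa1, which activates the HSP90 ATPase, by 0.17 and 0.29, in total RNA and RPF. The immunophilin Ppid rose by 0.31 in RPF. TE fell for Fkbp4 by 0.57, for Stip1 by 0.39 and for Ppp5c by 0.30 on the log2 scale. Total RNA of Fkbp4 rose by 0.51 and its RPF value was -0.06.

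In the endoplasmic reticulum, 8 of 21 chaperone genes were higher and 5 lower in total RNA, 2 and 5 in RPF, and 0 and 2 in TE. Over all genes tested these shares were 26.3% and 28%, 14.1% and 15.7%, and 3.24% and 6.57%. Sec63, a J-domain protein of the translocon, was at 50.7, 42.3 and 61.4 CPM in total RNA of controls and at 91.4, 99.3 and 81.3 CPM in that of *Rnmt* cKO cells, with replicate 3 placed as for the B cell markers. It rose by 0.82 in total RNA, was at -0.01 in RPF and fell in TE by 0.83 on the log2 scale. Pdia3, a disulfide isomerase of glycoproteins, was at 183, 185 and 257 CPM in total RNA of controls and at 300.4, 312 and 242 CPM in that of *Rnmt* cKO cells, which overlapped and had replicate 3 as the highest control and the lowest *Rnmt* cKO library, as for Hsph1 and the B cell markers. Its total RNA rose by 0.45 (SE 0.15, adjusted p = 0.033, edgeR), and its RPF fell by 0.41 (SE 0.06) and its TE by 0.86 (SE 0.18) on the log2 scale. P4hb, another disulfide isomerase gene, fell by 0.37 in total RNA and 0.51 in RPF, and the HSP70 exchange factor Sil1 by 0.61 and 0.29. Sdf2l1 fell by 0.52 in total RNA. The oxidase gene Ero1l rose by 0.44 in total RNA and 0.60 in RPF, and Dnajc1 by 0.34 and 0.59. Of 8 genes of the unfolded protein response, 3 were higher and 1 lower in total RNA, and 3 higher and 0 lower in RPF. The 1 lower gene was Ddit3, at -0.80 on the log2 scale. Xbp1, which encodes a transcription factor of this response, was at 77.1, 72.7 and 75.1 CPM in total RNA of controls and 131, 148 and 118 CPM in that of *Rnmt* cKO cells, and rose by 0.82 in total RNA (SE 0.09) and 0.68 in RPF (SE 0.11). Edem1 rose by 0.57 and 0.65, and Atf6b by 0.49 and 0.27.

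Among 13 mitochondrial chaperones and proteases, 5 were higher and 5 lower in total RNA, 2 and 1 in RPF, and 2 and 3 in TE. Over all genes tested these shares were 26.3% and 28%, 14.1% and 15.7%, and 3.24% and 6.57%. Hspa9, the HSP70 of the mitochondrial matrix, was at 558, 559 and 543 CPM in total RNA of controls and at 875, 856 and 833 CPM in that of *Rnmt* cKO cells, with a log2 fold change of 0.63 (SE 0.06). Its RPF value was -0.03 (SE 0.08) and its TE fell by 0.66 on the log2 scale (SE 0.10, adjusted p = 7.9e-04, edgeR). Its exchange factor Grpel1 did likewise, at 0.69 in total RNA (SE 0.06), -0.11 in RPF (SE 0.07) and -0.80 in TE (SE 0.09, adjusted p = 1.4e-04, edgeR). Hscb, the J-domain protein of iron-sulfur cluster assembly, went the other way, as its total RNA fell from 24.2 ± 2.89 CPM in controls to 8.49 ± 1.02 CPM in *Rnmt* cKO cells (SD, n = 3), its RPF fell by 0.57 on the log2 scale (SE 0.12) and its TE rose by 0.93 (SE 0.18, adjusted p = 0.0052, edgeR). Grpel2 rose by 0.48 in RPF, and Htra2 by 0.39 in total RNA and 0.61 in RPF. Of 7 small heat shock protein genes 2 were tested in total RNA, where 1 was higher and 1 lower, and Hspb11, a cilia protein gene despite its name, fell by 1.62 in total RNA (SE 0.14) and 0.84 in RPF (SE 0.18).

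Besides Hspb11, 9 genes of the related lists were past the threshold in total RNA at an average log2 CPM under 4, too low for the rule on naming genes, and all of them are given here after their values were seen. Of these, Hspa2 was at 0.83, Hspb6 at 0.57 and Dnajb2 at 0.53 on the log2 scale, and Dnajc28 was at -0.86, Ddit3 at -0.80, Dnajb14 at -0.65, Bcs1l at -0.63, Bag2 at -0.41 and Dnajc17 at -0.35. In RPF, 2 of them were past the threshold, Dnajb2 at 0.87 and Dnajb14 at -1.01.

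For each member tested, the gene with the closest pattern over the 12 libraries was found among 6668 genes, by the root mean square difference of log2 CPM centred on the controls of each library kind. Besides Dnajb11 for Hspa5, the closest genes reported here were Nup107 for Hspa8 (0.057), Ttc13 for Hsp90ab1 (0.048), Wdhd1 for Hspd1 (0.079), Ddx50 for Hspe1 (0.10), Sh3bp5 for Hsph1 (0.16) and Rnf40 for Dnajb1 (0.089). Rnf40 had a log2 fold change of 0.85 in total RNA and -0.39 in RPF, beside 0.84 and -0.46 for Dnajb1. The genes closest to Hspa1b, Xcl1 (0.48), Ccl4 (0.48) and Phlda3 (0.50), were much less close, with 0 to 64 counts per library behind the values of Hspa1b.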

How the data were processed

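The authors used read 2 alone, removed adapters with Cutadapt and reads of rRNA and tRNA with Bowtie, aligned the rest to mm10 with STAR 2.5.2b and GENCODE vM12 and deposited counts of uniquely aligned reads per gene and strand for each library, without normalization. Their deposited table of 10126 genes gives normalized signal values per library, which were used only to find the strand, and log2 fold changes and p-values, which were not used. Reads without a gene were 41.1 to 47.0% in total RNA and 53.9 to 70.4% in RPF. Duplicate reads were not removed. Genotypes were compared by edgeR (version 4.0.16, R 4.3.3) with TMM and quasi-likelihood F tests, for genes with a CPM above 1 in at least 3 libraries of a kind. TE was the interaction term of a model of all 12 libraries. The 3 fits were run on simulated counts with known changes as a check of the code. RiboDiff, used by the study, was not used here. Positions, lengths and symbols are from GENCODE vM21 (GRCm38), which held 49326 of the genes. Python 3.11.15 was used for tables, sequences and figures. The 10 genes, the related lists and the tests were chosen with earlier results of these data known. Genes named are all 10, *Rnmt*, genes overlapping them, the closest gene by pattern (3 for Hspa1b), all of lists of up to 4 genes, and from each other related list the 3 with the largest change past the threshold and an average log2 CPM of at least 4 in each comparison. The other members of those lists are given as counts. A few genes of these lists and patterns are not reported here and were left out of the counts and sums. The 6 marker lists name T, CD8 T, B, myeloid, NK and regulatory T cells. As alternatives, TMM was left out, DESeq2 1.42.0 was used, and the others were no filter, at least 10 counts in every library, both strands, protein-coding genes alone, Hspa1a and Hspa1b as 1 gene, edgeR's exact test, replicate blocks and each replicate left out.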

Additional observations from a re-analysis of the deposited data

Results flagged for a closer look

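Dnajb1 was picked out because its genotype difference was not the same in RPF as in total RNA. The TE log2 fold change was -1.30 (SE 0.10, adjusted p = 5.1e-06, edgeR), and this kept its direction and its call under all 15 alternatives. The sum of B cell markers was above every control in *Rnmt* cKO replicates 1 and 2, in total RNA and RPF. In *Rnmt* cKO replicate 3 it was below control replicate 3 in both. The part of B cells in the TE value was not tested.

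Reads on the strand opposite to Hspd1, which were counted only in the alternative with counts of both strands, were higher in RPF of *Rnmt* cKO cells than in that of controls. They numbered 13, 7 and 7 in controls and 30, 16 and 15 in *Rnmt* cKO cells, or 1.22, 1.05 and 0.856 CPM against 3.50, 1.56 and 3.68 CPM, with a mean of 2.91 CPM in *Rnmt* cKO cells. In total RNA they were at 0.484 to 0.740 CPM in controls and 0.542 to 0.776 CPM in *Rnmt* cKO cells. Over all genes, reads on the opposite strand came to 2.98, 3.83 and 3.4% of the reads on genes in RPF of controls and to 3.82, 3.43 and 4.86% in that of *Rnmt* cKO cells. With both strands counted, the RPF log2 fold change of Hspd1 was 0.014 (SE 0.11, adjusted p = 0.935, edgeR), beside 0.021 in the main fit. Hspd1 was the 1 gene of the 10 with at least 10 opposite-strand reads in every *Rnmt* cKO library and a level above every control. This rule set no floor for controls and did not look for lower levels, so the difference is a description alone. Hspe1 lies on that opposite strand and overlaps Hspd1 by 112 bases. The source of these reads was not tested.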

How the results depend on the processing

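All total RNA calls of the members, and those of Dnajb1 in RPF and TE, kept their direction and side of the threshold under every alternative that gave a value; without an *Rnmt* cKO replicate Hspa1b did not reach the filter and 5 were higher. Counts of members moved as follows. In RPF, edgeR's exact test gave 2 higher and 1 lower, with Hspa1b, which reached the filter through the *Rnmt* cKO libraries, at 1.99 (adjusted p = 0.046) and Hsp90ab1 at -0.30 (adjusted p = 0.060). With a replicate left out, 0 to 1 were higher and 1 to 2 lower. Without control replicate 3 the 1 higher was Hspa1b, while Hsph1 was at 0.27 (adjusted p = 0.070, edgeR). In TE, DESeq2 gave 1 higher and 3 lower, no filter gave 2 lower and protein-coding genes alone 2 lower. With a replicate left out, 0 to 1 were higher and 1 to 3 lower. Hsph1, with adjusted p-values of 0.012 to 0.050 under 5 alternatives, Hspa8, Hsp90aa1 and Hspe1 were those that passed in TE. Small values of the main fit changed sign with a replicate left out. Hspa1b in TE ranged from -0.47 to 2.76. The 2.76, without control replicate 3, stands against control RPF counts of 1 and 0 and is a description alone. The others were Hspa8 in RPF (-0.0084 to 0.19), Hspd1 in RPF (-0.0303 to 0.12, and -0.0131 without the filter) and Hspe1 in RPF (-0.0102 to 0.26). The cause of these changes was not tested.

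For the related lists, without a replicate 14 to 23 genes were lower in total RNA, and 0 to 4 higher and 8 to 13 lower in TE. In TE, 1 was higher with library size without TMM, 4 with DESeq2, 1 without the filter and 4 with at least 10 counts in every library. With a replicate block, 14 of the related genes were lower in total RNA, and with a replicate block within each library kind 1 was higher in TE. The numbers 1 to 3 did not pair the genotypes: deviations of same-numbered libraries correlated at -0.56 to -0.22 in total RNA and -0.04 to 0.25 in RPF. Total RNA and RPF libraries of the same genotype and number correlated at 0.061 to 0.35, and with a replicate block of genotype and number 3 members were lower in TE. The median of all genes moved by at most 0.036 on the log2 scale under other scalings. Depth limits Hspa1a and Hspa1b, with 0 to 64 counts per library, and RPF of the genes with few unique windows.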
